A study of Mus musculus with 21 samples.

Results

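Expression of 10 genes that mark radial glia (Pax6, Emx1, Emx2, Gli3, Hes1, Hes5, Nes, Vim, Fabp7 and Hopx) was followed in the brains of mice with a targeted long intergenic noncoding RNA (lincRNA). The genes were taken by symbol, and all 10 had an entry among the 40770 genes of the authors' deposited linc-Brn1b table and among the 42760 genes of the Peril table. From the linc-Brn1b strain, RNA was sequenced from whole telencephalon (the forebrain part that forms cortex and ganglionic eminences) at E13.5 and E15.5 and from whole brain at P7, in linc-Brn1b+/+ (wild type) and linc-Brn1b-/- (knockout) animals. From the Peril strain, which the labels call linc-Sox2, brain was sequenced at E18.5 in wild-type embryos and embryos labelled knockout. From the Fendrr strain, which the labels call linc-Foxf1a, E14.5 lung of wild-type and knockout embryos was used for levels only. Each group had 2 libraries by the labels, apart from the E15.5 linc-Brn1b knockout, where the labels name 3 and the study's text gives fewer.

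In every knockout the lincRNA gene is replaced by a lacZ cassette in all cells of the animal. The strains were made from targeted VGF1 hybrid embryonic stem cells, from a 129S6S v/Ev female and a C57BL/6N male, and crossed back to C57BL/6J 1 time. Expression is given in FPKM (fragments scaled to the length of the transcript and to the number of mapped reads), a level per transcript length, so that genes can be compared. The authors' deposited tables hold 1 pooled value per group and no value per library. No spread between animals could therefore be computed for any value here, and no difference was tested. Differences are given as second group minus first group in log2(FPKM + 1), and a difference past 0.5 in either direction, about 1.41-fold in FPKM at high levels, was counted. The same counts over all genes with a mean of at least 1 FPKM in the groups compared are given beside those of the 10 genes.

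Radial glia are the neural stem cells of the developing forebrain. Their cell bodies line the ventricle and their long fibres guide newborn neurons outwards, and they divide to renew themselves and to give rise to neurons, intermediate progenitors and later glia. Pax6, Emx1 and Emx2 are transcription factors of the dorsal (cortical) stem cells, and Gli3 is the transcription factor that acts mainly as a repressor in Sonic hedgehog signalling. Hes1 and Hes5 are repressors switched on by Notch signalling that keep the cells undifferentiated. Nes (nestin) and Vim (vimentin) are intermediate filaments of the fibre, Fabp7 is the brain fatty acid binding protein, and Hopx is a homeodomain protein without DNA binding of its own that marks some cortical radial glia. Fabp7 and Hopx are also made by astrocytes and by the Bergmann glia of the cerebellum, and Pax6 also by granule neurons of the cerebellum and their precursors.

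The targeted genes were examined first. In wild type the linc-Brn1b transcript was 1.60 FPKM at E13.5, 2.50 FPKM at E15.5 and 0.799 FPKM at P7, and it was listed at 0 in all 3 knockout groups. Pou3f3, the neighbouring gene that encodes Brn1, was at 44.8%, 35.4% and 25.6% of wild type in order of age. In the Peril table the only entry at the locus, linc-Atp11b-4, which lies partly outside the deletion, had 0.0109 FPKM in wild type against 4.65 FPKM under the knockout label. This is opposite to a loss of the entry, but the entry is not wholly within the deletion, so its level cannot check the label. Every direction given for Peril follows the label as deposited. The study checked the loss of Peril itself by RT-PCR in E18.5 brain, a measurement not analysed here. At E13.5 the 4 Y-linked genes (Uty, Kdm5d, Ddx3y and Eif2s3y) ranged from 8.23 to 16.5 FPKM in wild type and were at or near 0 in the knockout. In Peril and in linc-Brn1b at P7 and E15.5 they were near 0 in wild type and were expressed only in the libraries labelled knockout. The sex of the animals and the genotype cannot be told apart in these comparisons.

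In the E13.5 wild-type telencephalon the 10 genes spanned 8.30 to 537 FPKM. Vim (537 FPKM) and Fabp7 (516 FPKM) were the highest, ranking 104 and 108 among 40725 named genes, and Nes followed at 132 FPKM. Pax6 (51.5 FPKM), Emx1 (47.97 FPKM) and Hes5 (46.9 FPKM) lay close to each other, then Emx2 (30.3 FPKM), Gli3 (26.4 FPKM) and Hes1 (21.1 FPKM), with Hopx (8.30 FPKM) last. Without values per library it cannot be said which neighbours in this order differ. The knockout at E13.5 had the same order. In E14.5 lung of the Fendrr strain, whose table was scaled separately, Pax6, Hes5, Emx1 and Emx2 were all below 0.1 FPKM in both genotypes. Vim (497 FPKM), Nes (35.2 FPKM), Hopx (23.8 FPKM), Hes1 (22.3 FPKM) and Gli3 (12.3 FPKM) were expressed in wild-type lung, and Fabp7 was at 8.88 FPKM. Of the 10 genes, 4 were thus near absent from the lung, while the others were not restricted to brain.

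**Figure D1:**
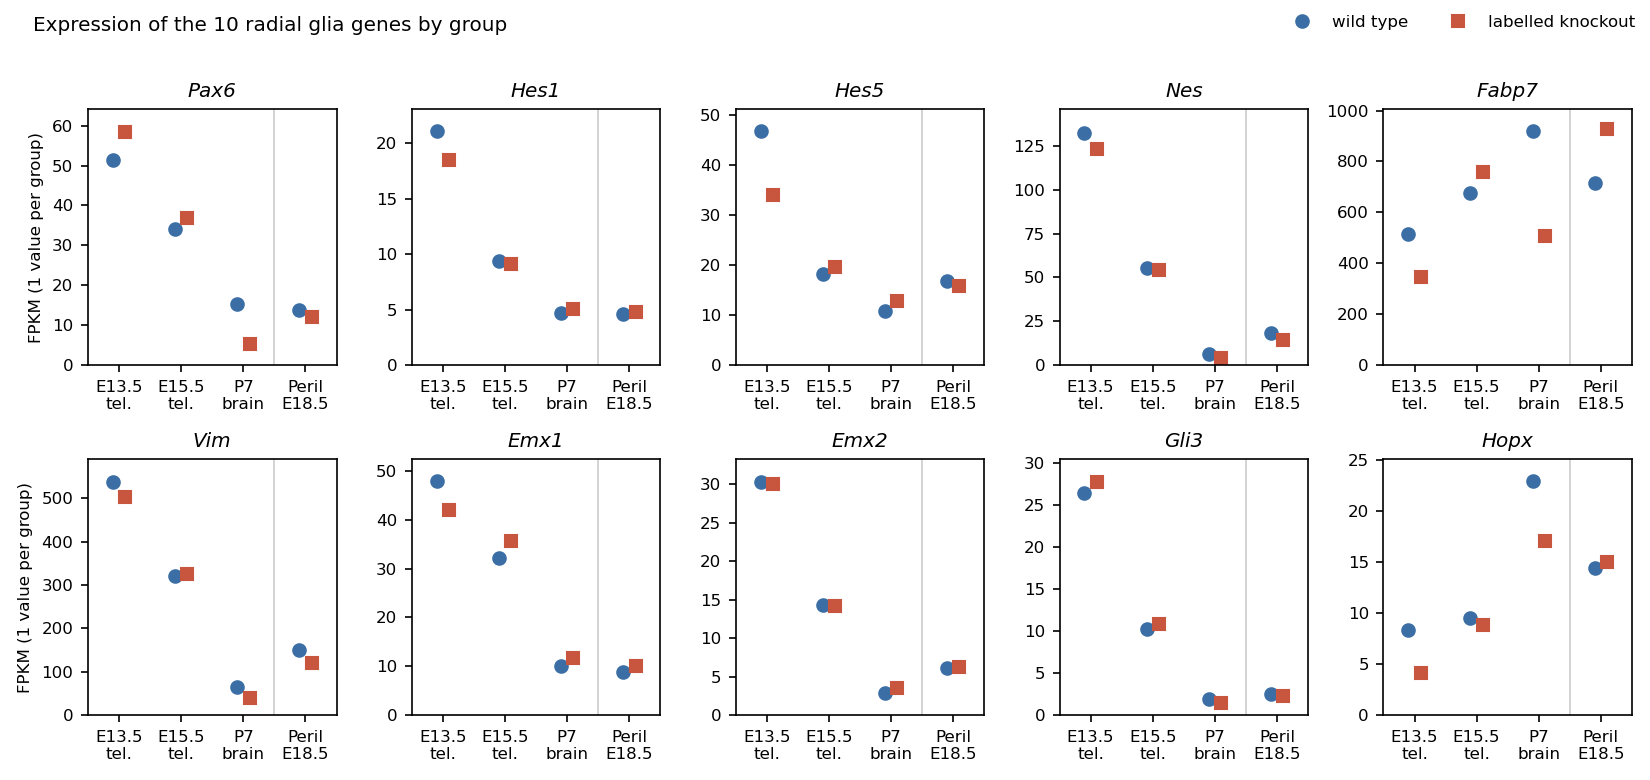
FPKM of each of the 10 genes (vertical axes, from 0) in the linc-Brn1b telencephalon at E13.5 and E15.5, the linc-Brn1b P7 brain and, right of the grey line, the separately scaled Peril E18.5 brain. Circles are wild type and squares the libraries labelled knockout, each 1 pooled value without an error bar; Fabp7 and Hopx were highest at P7 in linc-Brn1b wild type and the other 8 genes at E13.5.

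Most of the 10 genes were lower at E15.5 than at E13.5 in the telencephalon of both genotypes. For 8 of the 10 the wild-type difference between ages was larger than the genotype difference at either age. From E13.5 to E15.5 in wild type, 8 of the 10 genes were lower past 0.5 and 0 were higher past it, with a median difference of -0.89. Of all 13537 genes, 10.3% were lower and 11.5% higher past 0.5, and the median was 0.01. In the knockout, 7 of the 10 were lower and 2 higher past 0.5, with a median of -0.71, against 10.7% of all genes lower and 13.3% higher. The other radial glia genes, a list of 22 such as Sox2, Nr2e1 and Tnc of which 21 were in the table, were lower past 0.5 for 11 genes in wild type and higher for 2. All 12 proliferation genes were lower past 0.5 in wild type and 9 of 12 in the knockout. Of 11 neuron genes, 7 were higher past 0.5 in wild type. Non-neural lists differed between the ages too. At E15.5 the summed level of meninges and mesenchyme genes was 9.47% of that at E13.5 in wild type and 15.48% in the knockout. Erythroid genes were at 9.36% and 18.46%, endothelial genes at 76.4% and 114.8%, and microglial genes at 96.9% and 178.5%. Choroid plexus genes were at 144.4% in wild type and 2.74% in the knockout, and ependymal genes at 55.2% and 32.2%. The part of these cell types in the age differences of the 10 genes was not tested. The Y-linked genes differ between the ages within each genotype, so that sex and age cannot be told apart either. In whole tissue RNA, fewer cells of a type and less RNA per cell cannot be told apart.

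Among the dorsal transcription factors, Pax6 (chr2:105509053-105543317, plus strand, mm9) went from 51.5 to 34.0 FPKM between the embryonic ages in wild type and from 58.4 to 36.8 FPKM in the knockout. Emx1 (chr6:85137432-85154456, plus strand) went from 47.97 to 32.2 FPKM in wild type and from 41.9 to 35.7 FPKM in the knockout. Emx2 (chr19:59533180-59539847, plus strand) went from 30.3 to 14.3 FPKM and from 30.0 to 14.2 FPKM. Of these 3, Emx2 had the largest difference between ages and the closest match between genotypes, -1.03 in both. Gli3 (chr13:15555068-15821859, plus strand) went from 26.4 to 10.3 FPKM in wild type and from 27.7 to 10.8 FPKM in the knockout, differences of -1.29 and -1.28. For Emx1 the difference between ages was smaller in the knockout, -0.23 against -0.56.

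The entries of Pax6 and Emx2 are uncertain in 1 respect. The table's locus for Pax6 spans 160990 bp because it is joined with the antisense gene Pax6os1, which overlaps Pax6 by 1435 bp, and that of Emx2 spans 40254 bp and includes Emx2os, annotated 54 bp away on the other strand. Pax6os1 was at most 0.347 FPKM and Emx2os at most 1.39 FPKM in the linc-Brn1b groups. Strand-specific counting is not stated, so reads from a gene and its antisense partner cannot be told apart. Annotated genes on the other strand also overlap Hes5 and Hopx.

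Both Notch effectors were lower at E15.5. Hes1 (chr16:30064470-30067882, plus strand) went from 21.1 to 9.38 FPKM between the embryonic ages in wild type and from 18.46 to 9.14 FPKM in the knockout. Hes5 (chr4:154335032-154336480, plus strand) went from 46.9 to 18.3 FPKM in wild type, a difference of -1.32, and from 34.1 to 19.7 FPKM in the knockout, a difference of -0.76. After subtraction of the median of genes of like transcript length, these differences were -1.32 and -1.25. Of the 17 other genes of the Notch pathway (receptors, ligands, modulators and further targets), 11 were lower past 0.5 in wild type and 1 higher, with a median of -0.61. In the knockout 11 were lower and 0 higher, with a median of -0.53. Among them the ligand Dll1 went from 28.8 to 13.7 FPKM in wild type, and the receptor Notch1 from 32.4 to 18.4 FPKM. Of 11 other genes of the Sonic hedgehog pathway, in which Gli3 acts, 10 were kept, and 6 of these were lower past 0.5 in each genotype.

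The promoters of Hes5, lower at the later age, and of Fabp7, higher, are shown beside each other because the genes took opposite courses. Each run is the 250 bases before the annotated start, 5′ to 3′ on the gene's strand, from RefSeq on GRCm38.p6, a later build than the mm9 positions above. Capitals mark matches to GTGGGAA or its reverse complement TTCCCAC, the core letters read by Rbpj, the DNA-binding partner of Notch.
Hes5 (chr4:154960673-154960922): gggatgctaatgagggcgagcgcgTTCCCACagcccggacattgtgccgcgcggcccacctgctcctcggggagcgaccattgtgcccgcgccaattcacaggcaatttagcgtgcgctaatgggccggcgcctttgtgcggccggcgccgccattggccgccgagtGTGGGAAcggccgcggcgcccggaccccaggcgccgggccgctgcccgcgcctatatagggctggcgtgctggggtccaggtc
Fabp7 (chr10:57784673-57784922): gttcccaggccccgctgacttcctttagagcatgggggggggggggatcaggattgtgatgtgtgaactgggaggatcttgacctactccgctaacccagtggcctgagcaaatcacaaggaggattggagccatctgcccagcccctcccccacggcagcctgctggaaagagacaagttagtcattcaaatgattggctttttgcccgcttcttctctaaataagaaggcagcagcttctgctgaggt
Hes5 held a reverse match 226 bases and a forward match 83 bases before its start, and Fabp7 held none. The windows of the other 7 genes with an entry in the RefSeq table also held none, so that 1 of 9 genes had a match; Hes1 had no entry. Pax6 and Hopx had 2 windows each, so the count by gene is not the same measure as a share of windows. Of all 32851 promoter windows of this length, 5.42% held the motif on either strand and 18 held it in both orientations. These matches describe the letters in these windows only.

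The intermediate filament genes were lower at E15.5 in both genotypes. Nes (chr3:87775000-87784373, plus strand) went from 132 to 55.2 FPKM between the embryonic ages in wild type and from 123 to 54.1 FPKM in the knockout, differences of -1.25 and -1.18. Vim (chr2:13495554-13504453, plus strand) went from 537 to 322 FPKM and from 503 to 326 FPKM, differences of -0.74 and -0.62. Both genotypes followed nearly the same course for these genes.

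Fabp7 and Hopx took the opposite course. Fabp7 (chr10:57504687-57508256, plus strand) went from 516 to 674 FPKM between E13.5 and E15.5 in wild type and from 348 to 759 FPKM in the knockout, differences of 0.39 and 1.12. Hopx (chr5:77515468-77544186, minus strand) went from 8.30 to 9.56 FPKM in wild type and from 4.11 to 8.83 FPKM in the knockout, differences of 0.18 and 0.94. Only these 2 of the 10 genes were higher at E15.5 than at E13.5, in either genotype. The change with age in the knockout exceeded that in wild type by 0.76 for Hopx, 0.74 for Fabp7, 0.56 for Hes5 and 0.34 for Emx1. For the other 6 genes it departed by at most 0.15. By arithmetic this excess is the genotype difference at E15.5 minus that at E13.5, both given below, and is not a separate result. In the knockout, but not in wild type, the difference between ages went with transcript length, with Spearman's rho of -0.35 over 11823 genes against 0.01 over 11868. The E13.5 knockout group also enters the E13.5 genotype comparison below, where the difference went with length too. After subtraction of the median of genes of like length, the excess was 0.71 for Hopx, 0.25 for Fabp7, 0.24 for Nes, 0.20 for Gli3 and 0.19 for Emx1, and 0.07 for Hes5. Hopx alone thus kept an excess past 0.5.

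**Figure D2:**
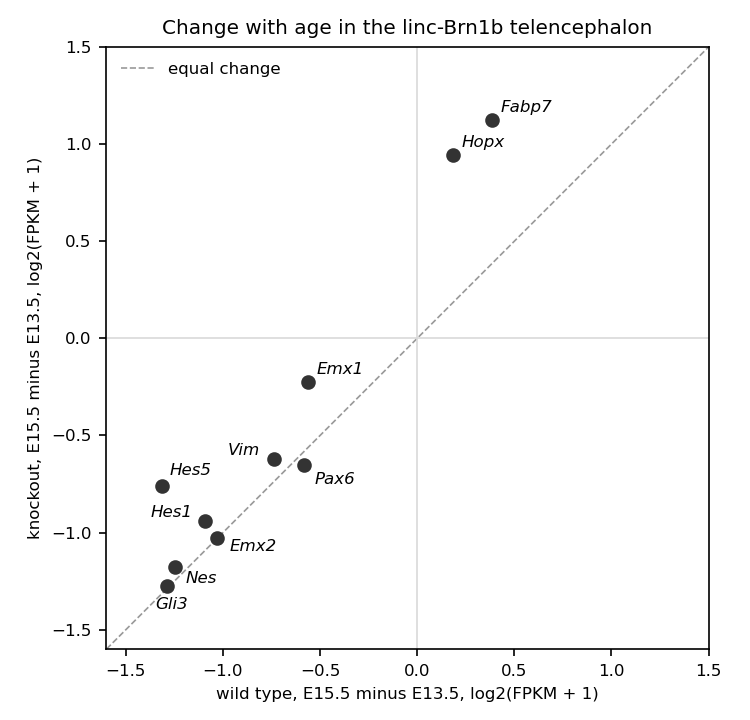
Change from E13.5 to E15.5 in the linc-Brn1b telencephalon in log2(FPKM + 1), wild type on the horizontal and knockout on the vertical axis, 1 point per gene. On the dashed line both genotypes change alike; Hopx, Fabp7, Hes5 and Emx1 lie above it by 0.34 to 0.76 and the other 6 genes within 0.15 of it. The plotted values are not corrected for transcript length, and after that correction Hes5 lies 0.07 from the line and only Hopx (0.71) lies more than 0.5 from it.

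At E13.5, 8 of the 10 genes were lower in the linc-Brn1b knockout than in wild type, where 41.1% of all 13506 genes were, and the median difference was -0.14 against 0.06 for all genes. Past 0.5, 2 of the 10 were lower and 0 higher, against 7.14% of all genes lower and 2.72% higher. Hopx was the lowest, with 8.30 FPKM in wild type against 4.11 FPKM in the knockout, 49.5% of wild type and a difference of -0.86 that lay at percentile 2.36 of all genes. Fabp7 was 516 and 348 FPKM (67.4%), a difference of -0.57, and Hes5 46.9 and 34.1 FPKM (72.6%), a difference of -0.45. Hes1 (21.1 and 18.46 FPKM), Emx1 (47.97 and 41.9 FPKM), Nes (132 and 123 FPKM), Vim (537 and 503 FPKM) and Emx2 (30.3 and 30.0 FPKM) differed by between -0.19 and -0.01. Pax6 was higher in the knockout, 58.4 against 51.5 FPKM, as was Gli3, 27.7 against 26.4 FPKM.

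The difference at E13.5 went with transcript length over the whole table. Genes were split by their longest annotated transcript into 10 groups of equal size. The shortest group, of at most 1314 nt, had a median difference of -0.46, and the longest 0.16. Spearman's rho between length and difference was 0.50 over 11830 genes, a description across genes of the same libraries. It was -0.21 at E15.5, 0.16 at P7 and 0.22 in Peril. Fabp7 (880 nt) and Hes5 (1273 nt) have the shortest transcripts of the 10 genes, and Pax6 (8401 nt) and Gli3 (8170 nt), the only ones higher in the knockout, the longest. After subtraction of the median of genes of like length, Fabp7 differed by -0.11, Hes5 by 0.01 and Pax6 by 0.01, and only Hopx (1846 nt), at -0.80, remained past 0.5. The part of transcript length in the E13.5 differences was not tested further.

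**Figure D3:**
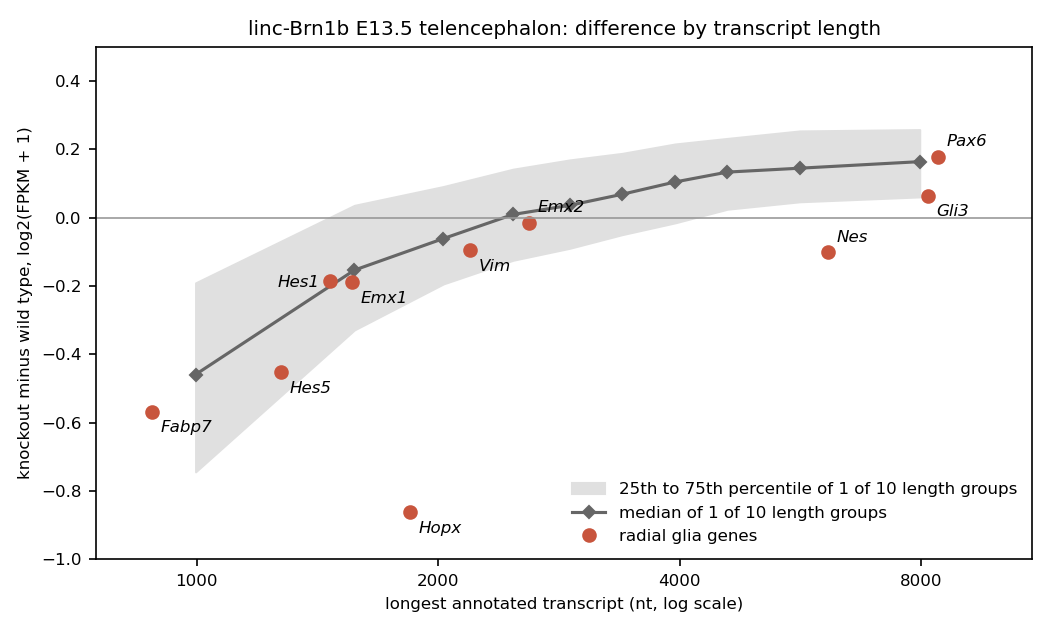
Difference between linc-Brn1b knockout and wild type at E13.5 in log2(FPKM + 1) against the longest annotated transcript in nt (log scale). Diamonds are medians of the 10 groups of all genes by length with the 25th to 75th percentile in grey, going from -0.46 to 0.16; Hopx, at -0.86, lies far below the genes of its length, and Fabp7 and Hes5 lie among theirs.

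Beside the 10 genes at E13.5, the other radial glia genes had a median of 0.01, with 1 of 21 lower and 2 higher past 0.5, the fatty acyl-CoA binding gene Dbi lowest (276 and 187 FPKM) and the extracellular matrix gene Tnc highest (5.97 and 10.7 FPKM). The Notch pathway list had a median of -0.14, like the 10 genes, with 1 of 17 lower past 0.5, the ligand Dll3 (9.23 and 5.99 FPKM), and a median of -0.15 after subtraction of the median of genes of like length, against -0.04 for the 10 genes. Proliferation genes had a median of -0.19, with 3 of 12 lower past 0.5, and genes of the ventral telencephalon a median of -0.17. Of the neuron genes, 10 of 11 were higher in the knockout, 2 of them past 0.5, with a median of 0.31. Among non-neural lists, all 8 endothelial genes and the 6 microglial genes kept were lower in the knockout, with summed levels at 67.8% and 59.7% of wild type. The 7 genes of meninges and mesenchyme kept were also lower, the list's summed level being 53.8% of wild type, and erythroid genes summed to 42.2%. After subtraction of the median of genes of like length, the medians of the endothelial, microglial and mesenchymal lists were -0.53, -0.28 and -0.77. The hindbrain markers Hoxa2, Hoxb2 and Hoxb3 were listed at 0 in both genotypes. The part of these cell types in the differences of the 10 genes was not tested.

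At E15.5 the differences between genotypes were small for most genes, the 10 included. All 10 differences lay within 0.25 of 0, from -0.10 (Hopx) to 0.17 (Fabp7), with a median of 0.05. By sign, 4 were lower in the knockout, where 46.5% of all 13520 genes were. Past 0.5, 0 of the 10 were lower or higher, against 0.340% of all genes lower and 0.251% higher. Hopx, the gene with the greatest difference at E13.5, had 9.56 and 8.83 FPKM in wild type and knockout. Fabp7 was 674 and 759 FPKM, Emx1 32.2 and 35.7 FPKM, Pax6 34.0 and 36.8 FPKM and Hes5 18.3 and 19.7 FPKM. Among all genes the differences of Fabp7, Emx1, Pax6 and Hes5 lay at percentiles 97.3, 96.2, 92.9 and 92.3, and that of Hopx at 7.47. Nes was at 98.0% of wild type, Vim at 101.5%, Emx2 at 99.3%, Hes1 at 97.4% and Gli3 at 106%. The other radial glia genes and the Notch pathway likewise had 0 genes past 0.5. All 5 kept choroid plexus genes were lower past 0.5 in the same libraries, and the marker Ttr had 231 and 1.39 FPKM in wild type and knockout. The ependymal gene Dynlrb2 (1.74 and 0.291 FPKM) and the embryonic globin gene Hbb-y (26.7 and 16.7 FPKM) were also lower past 0.5.

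**Figure D4:**
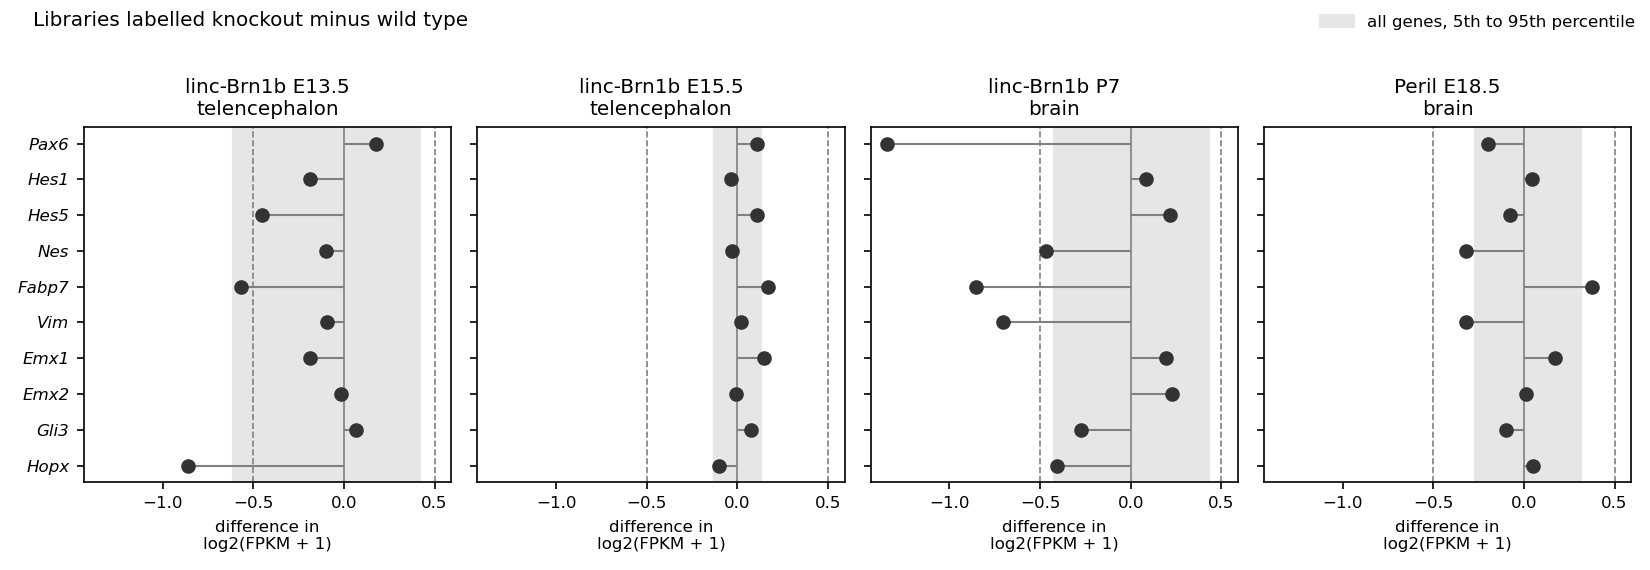
Difference between libraries labelled knockout and wild type in log2(FPKM + 1) for the 10 genes in the 4 comparisons. The grey band spans the 5th to 95th percentile of all genes with a mean of at least 1 FPKM and the dashed lines mark 0.5 in each direction; Hopx and Fabp7 pass the lower line at E13.5, Pax6, Fabp7 and Vim at P7, and no gene passes either line at E15.5 or in Peril.

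In the P7 brain Pax6 had the largest genotype difference of any of the 10 genes in the 4 comparisons. Past 0.5, 3 of the 10 genes were lower in the knockout and 0 higher, against 3.29% of all 14174 genes lower and 3.34% higher. By sign 6 of the 10 were lower, where 47.8% of all genes were, and the median was -0.34 against 0.01 for all genes. Pax6 had 15.3 and 5.43 FPKM in wild type and knockout, so that 35.5% of the wild-type level remained. Its difference of -1.34 lay at percentile 0.219 of all genes. Fabp7 was 919 and 508 FPKM (55.3%, difference -0.85) and Vim 64.8 and 39.4 FPKM (60.8%, difference -0.70).

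The remaining genes split by sign at P7. Nes was 6.41 and 4.36 FPKM, a difference of -0.47 on the log2(FPKM + 1) scale and of -0.56 as a plain log2 ratio, so that its count depends on the pseudocount. Hopx was 23.0 and 17.1 FPKM, a difference of -0.41, and Gli3 1.91 and 1.40 FPKM, a difference of -0.28. The dorsal factors Emx1 (10.1 and 11.7 FPKM) and Emx2 (2.91 and 3.57 FPKM) were slightly higher in the knockout. So were Hes5 (10.9 and 12.8 FPKM) and Hes1 (4.69 and 5.03 FPKM). Pax6 and the other dorsal factors Emx1 and Emx2 thus differed in opposite directions. At P7, subtraction of the median of genes of like length left Pax6 at -1.43, Fabp7 at -0.79 and Vim at -0.71 and put Nes, at -0.52, past 0.5.

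Marker lists of the cerebellum and hindbrain were lower in the same P7 knockout libraries. All 10 kept genes of the Bergmann glia and cerebellum list, which includes Hopx, were lower, 8 of them past 0.5, with a median of -0.96 and a summed level at 47.9% of wild type. The Purkinje cell gene Pcp2 had 14.7 and 1.48 FPKM in wild type and knockout, and Neurod1, a gene of granule neurons and of cortical progenitors, 25.03 and 8.37 FPKM. The summed level of the 7 hindbrain and midbrain genes was 37.1% of wild type. Of these, Hoxa2, Hoxb2 and Hoxb3 ranged from 0.627 to 1.54 FPKM in wild type and reached no more than 0.0221 FPKM in the knockout. Both genotypes are labelled whole brain. These 3 genes were below the minimum mean of 1 FPKM. The 2 genes kept were Gbx2, at 1.72 and 1.71 FPKM in wild type and knockout, and En2, at 1.87 and 0.577 FPKM. In Peril E18.5 brain Hoxa2, Hoxb2 and Hoxb3 were detected in both groups, at 0.468 FPKM or more. How much cerebellum and hindbrain the libraries held and how much each cell held of these transcripts cannot be told apart, and the part of these lists in the lower Pax6, Fabp7 and Vim was not tested.

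Several lists of other cell types were also lower in the P7 knockout. Of the oligodendrocyte genes 7 of 8 were lower, 4 of them past 0.5, with a summed level at 66.0% of wild type, and all 5 ependymal genes were lower, at 67.5%. All 7 kept genes of meninges and mesenchyme were lower, at 72.4%, and 6 of 7 choroid plexus genes, at 68.3%. The part of these cell types in the differences of the 10 genes was not tested. The other radial glia genes had a median of -0.18, with 5 of 21 lower past 0.5 and 0 higher, Tnc lowest (19.6 and 9.71 FPKM), followed by the endothelin receptor gene Ednrb (79.4 and 49.6 FPKM). Of 12 proliferation genes, 11 were lower past 0.5, among them Top2a (13.1 and 5.64 FPKM), and the list's summed level was 63.8% of wild type. Astrocyte genes went both ways, with 2 of 9 lower and 2 higher past 0.5, the folate enzyme gene Aldh1l1 at 49.4% of wild type and the glutamate transporter gene Slc1a2 at 164%. The 17 Notch pathway genes had a median of -0.13 and 0 past 0.5, and all 7 kept genes of the ventral telencephalon were higher in the knockout, with a median of 0.17 and 0 past 0.5.

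**Figure D5:**
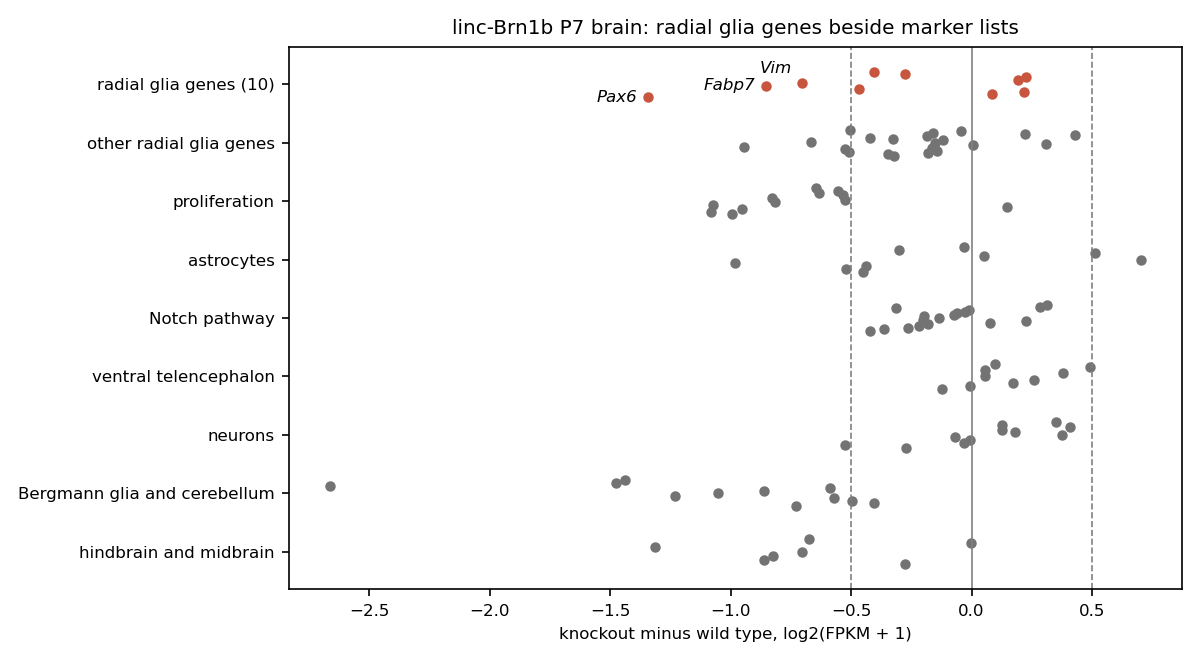
Difference between linc-Brn1b knockout and wild type at P7 in log2(FPKM + 1), 1 point per gene in the table, for the 10 genes and 8 marker lists; dashed lines mark 0.5 in each direction and the vertical scatter has no meaning. Pax6, Fabp7 and Vim lie at -1.34, -0.85 and -0.70. The lowest kept genes lie at -2.66 in the cerebellar, -1.08 in the proliferation, -0.98 in the astrocyte and -0.94 in the other radial glia list. No gene of the ventral telencephalon or Notch pathway lists passes 0.5.

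Between E15.5 telencephalon and P7 brain, tissue and age cannot be told apart. In wild type 9 of the 10 genes were past 0.5, 8 lower and 1 higher, where 57.0% of all 14151 genes were past it in either direction. In the knockout all 10 were, 9 lower and 1 higher, where 58.0% of all genes were. Shares of all genes by direction were not counted here. Their 25th and 75th percentiles were -0.64 and 0.54 in wild type and -0.65 and 0.56 in the knockout. Nes was lowest relative to E15.5, at 11.6% of its earlier level in wild type and 8.07% in the knockout, and Gli3 (18.6% and 12.9%) and Vim (20.1% and 12.1%) followed. Hopx was the gene higher in both, from 9.56 to 23.0 FPKM in wild type and from 8.83 to 17.1 FPKM in the knockout. Fabp7 went from 674 to 919 FPKM in wild type and from 759 to 508 FPKM in the knockout, and Pax6 from 34.0 to 15.3 FPKM and from 36.8 to 5.43 FPKM. Only Fabp7 differed between the ages in opposite directions in the genotypes. The median over all genes was -0.10 in both genotypes, and relative to it the knockout difference of Fabp7 was -0.48 and that of Hes5 -0.48, short of 0.5, while the wild-type difference of Fabp7 was 0.55. Astrocyte genes were higher at P7 in wild type in 8 of 9 cases past 0.5, Gfap going from 0.431 to 101.3 FPKM.

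In the Peril strain at E18.5, 5 of the 10 genes were lower and 5 higher in the libraries labelled knockout, with a median of -0.03, where 49.2% of all 14405 genes were lower. Past 0.5 there were 0 of the 10 in either direction, against 1.06% of all genes lower and 1.54% higher. Fabp7 had the greatest difference, from 715 FPKM in wild type to 928 FPKM under the knockout label (0.37). Nes was 18.2 and 14.4 FPKM and Vim 150 and 120 FPKM, each a difference of -0.32. Both filament genes were thus lower and Fabp7 was higher, at percentiles 3.42, 3.39 and 96.6 of all genes. Pax6 was 13.9 and 12.0 FPKM, Hes5 16.9 and 15.9 FPKM, Emx1 8.73 and 9.96 FPKM, and the remaining 4 genes differed by at most 0.10. Sox2, a stem cell transcription factor and the protein-coding neighbour of Peril, was 30.5 and 21.5 FPKM, the lowest difference (-0.49) among the other radial glia genes. Proliferation genes were lower in the same libraries in 11 of 12 cases, with a median of -0.28 and a summed level at 81.8% of wild type. The summed levels of the endothelial (84.5%), microglial (78.9%), mesenchymal (78.5%), ependymal (75.4%), choroid plexus (69.1%) and erythroid (60.0%) lists were lower as well. Those of the hindbrain and midbrain (109.4%), astrocyte (108.0%), neuron (104.3%) and oligodendrocyte (103.3%) lists were higher. By gene, 6 of 9 astrocyte, 9 of 11 neuron and 6 of 8 oligodendrocyte genes were higher. The part of all these lists in the differences of the 10 genes was not tested.

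Across the 6 linc-Brn1b groups, the genes closest in course to Pax6 were B3gnt5, Hjurp and Chd7, with distances of 0.35, 0.37 and 0.43 between mean-centred log2(FPKM + 1) values among 9598 genes with a mean of at least 5 FPKM. B3gnt5, a glycosyltransferase gene, had 5.94 and 2.71 FPKM in wild type and knockout at P7, and Hjurp, which encodes a centromere histone chaperone, was 9.67 and 3.64 FPKM. Chd7, a chromatin remodeller gene, was 5.84 and 2.53 FPKM. All 3, like Pax6, were highest at E13.5 and lower in the P7 knockout, a likeness that follows from their choice by these same values. The genes closest to the mean course of the 10 were Cep76, Hat1 and Haus5, at distances of 0.13, 0.14 and 0.15. With a pseudocount of 0.1 they were Haus5, Hat1 and Gstcd, at distances of 0.07, 0.12 and 0.17, while the 3 closest to Pax6 were again B3gnt5, Hjurp and Chd7. These distances describe 6 pooled values per gene and were not tested.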

How the data were processed

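RNA-Seq of mouse brain (linc-Brn1b and Peril strains) and, for levels only, lung (Fendrr strain) was used, from 21 libraries in all. TruSeq libraries were sequenced by the authors as paired 101 bp reads and mapped with TopHat2 on mm9. Cufflinks (2.0.2 in the submitters' processing notes) built the transcripts and Cuffdiff2, at its defaults, estimated levels. What the authors deposited is FPKM, scaled within each of 3 tables and pooled to 1 value per group. Their further columns (log2 fold change, test statistic, p-value, q-value and a significance mark) were not used. Values per library are not used here (0 columns left out), so depth is unknown and no interval, floor or test was computed.

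Differences of log2(FPKM + 1) were computed in Python 3.11.15 with pandas 2.3.3 over genes with a mean of at least 1 FPKM in the groups compared, and counted past 0.5. Rows without a gene symbol (0.110% of the linc-Brn1b table, 0.0327% of the others) were left out. Positions, strands and transcript lengths are those of GENCODE vM1 on mm9 (NCBIM37), and promoter windows of 250 bases those of RefSeq on GRCm38.p6. The tables were normalized separately, so differences were taken within a table.

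Named genes are the 10 members, up to 2 genes at each end of the 19 other lists, the targeted genes, the genes checking the groups and the 3 genes nearest in course. Genes outside this rule (linc-Atp11b-4, Pax6os1, Emx2os, Hoxa2, Hoxb2, Hoxb3, and Dll1, Notch1, Nr2e1, Gfap where they are not at an end) were named after their values were seen. The members and lists were chosen with earlier results of these data known. The counting and the search for nearest courses were tested on simulated data. Alternatives were other pseudocounts, thresholds, minimum levels and centrings; centring on transcript length was chosen after seeing the data.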

Additional observations from a re-analysis of the deposited data

How the results depend on the processing

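No paired analysis was possible because the deposited tables hold 1 pooled value per group, and for the same reason no replicate could be left out. All counts of genes past 0.5 kept within 1.5 times of those reported with a pseudocount of 0.1, with plain ratios, without a minimum, with a minimum of 5 FPKM and with centring on the median of all genes. With a threshold of 1, the count was 0 at E13.5, 1 at P7, 5 between the embryonic ages in wild type, 4 in the knockout, and 6 between E15.5 and P7 in the knockout. With a threshold of 0.25, it was 6 at P7 and 3 in Peril. The share of all genes past 1 or 0.25 was not counted, so these counts have nothing to be set against. Centring on genes of like transcript length left 1 gene at E13.5. No difference of a gene past 0.5 changed its sign under these alternatives. Single genes crossed 0.5 in 9 cases, among them Hes5 at E13.5 (-0.51 after centring on the median) and Nes at P7 (-0.55 with a pseudocount of 0.1). Depth and the spread between animals are unknown, so these counts do not say how often a difference of this size arises between animals of 1 genotype.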

Other observations

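The antisense gene Emx2os had 1.39 and 0.399 FPKM in wild type and linc-Brn1b knockout at E13.5, while Emx2 itself was 30.3 and 30.0 FPKM. At E15.5 Emx2os was 0.395 and 0.587 FPKM. In Peril E18.5 brain it was 0.00623 and 0.00601 FPKM, although Emx2 was 6.15 and 6.20 FPKM there. Pax6os1 had 0.245 and 0.0317 FPKM in the same order at P7, the group in which Pax6 was at 35.5% of wild type. These levels are low, and the spread between animals is unknown.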
